A study of Mus musculus with 9 samples.

Results

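The 30 genes described here make up the piRNA pathway and its germ granules. They were listed by name for their known function, with earlier results of these data in view, and all 30 were found among 49603 RefSeq genes, of which 21779 are protein-coding. For each of them, every deposited interval that touched the annotated gene or 2 kb on either side was collected. The samples were germ cells taken from testis; the mice were wild-type, of strain ICR and aged postnatal day 35. All shared that genotype and age, and germ cell stages were not separated, so each value is an average over the stages present. Chromatin was retrieved with biotinylated probes against the long noncoding RNA Gm4665 (3 samples), with probes labelled LacZ, taken here as the control set (3 samples), or sequenced as input (3 samples). Sample titles call the captured RNA LncRNA-20 and the protocol text calls it Gm4665, and both names were taken here as the same RNA. The labels carry the same protocol text for all 9 samples, and whether each replicate is a separate animal is not stated. The lists hold retrieved DNA, so the RNA levels of these genes were not measured.

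PIWI proteins bind piRNAs, small RNAs that guide them to transposon and other transcripts in the germ line. Long precursor transcripts are unwound, cut, trimmed and methylated, largely at the surface of mitochondria, and the finished piRNA is loaded into a PIWI protein. Arginine-methylated PIWI proteins are held by Tudor proteins in germ granules, the intermitochondrial cement of spermatocytes and the chromatoid body of round spermatids. A nuclear arm of the pathway directs DNA methylation to transposons in fetal germ cells.

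Of the 30 genes, 16 (53.3%) had at least 1 Gm4665 interval, 27 intervals in all. The same rule marked 39.3% of protein-coding genes, 40.8% of protein-coding genes within the length range of the 30 (3.77 to 129 kb) and 27.1% of all genes. With the LacZ probes, 6 of the 30 genes (20%) held 7 intervals, beside 16.9% of protein-coding genes, 15.4% of those within the same length range and 10.6% of all genes. The 30 genes are long, with a median of 38.1 kb beside 17.2 kb for protein-coding genes, and longer genes held an interval more often. Among protein-coding genes the share with a Gm4665 interval was 13.5% up to 10 kb, 34.5% from 10 to 30 kb, 54.5% from 30 to 60 kb and 76.8% from 60 to 150 kb. At those shares, 30 genes of these lengths would include 15.3 with a Gm4665 interval and, at the matching LacZ shares, 6.17 with a LacZ interval. The counts of 16 and 6 lay near both figures, so the share with an interval is close to that of other genes of these lengths and is no result particular to the pathway. Density gave the same picture, at 18.6 Gm4665 intervals per Mb of gene and flank beside 17.5 for protein-coding genes within the length range, and 4.81 LacZ intervals per Mb beside 5.07. The 2 probe lists differ in length (38711 and 9448 intervals) and were normalized separately, so no count or fold was tested between them.

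**Figure D1:**
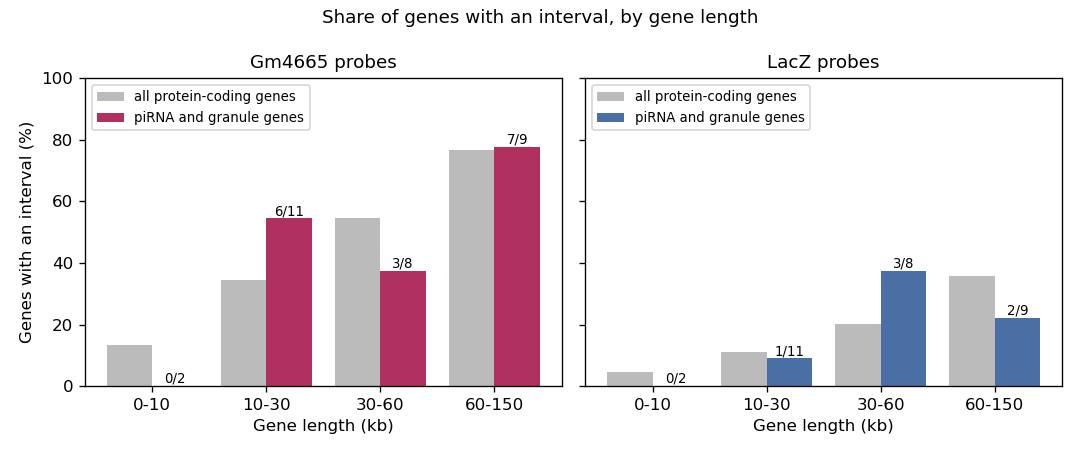
Percent of genes with at least 1 interval in the gene or its 2 kb flanks (vertical axis), by gene length in kb, for Gm4665 probes (left) and LacZ probes (right). Grey bars are all protein-coding genes and coloured bars the 30 piRNA and granule genes, with their counts printed above: 0 of 2, 6 of 11, 3 of 8 and 7 of 9 had a Gm4665 interval.

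Where the intervals lay was read against RefSeq transcription starts, which, with strand, were listed for 25 of the 30 genes. None was listed for Piwil2, Tdrd6, Pnldc1, Rnf17 and Spocd1. Of the 25, 3 genes (12%) had a Gm4665 interval within 2 kb of a start, beside 8.42% of 17492 protein-coding genes with a listed start. These were Fkbp6, Piwil1 and Prmt5. With LacZ probes 1 of 25 (4.0%) did, Wdr77, beside 2.71%. A single gene of the 25 (4.0%), Fkbp6, had a Gm4665 interval over the promoter window itself (250 bases before to 50 after a start), beside 1.76% of protein-coding genes, and no LacZ interval overlapped a promoter window of the 25. The annotated span was overlapped by 24 of 27 Gm4665 intervals and 7 of 7 LacZ intervals. Most of the bases searched lay in the spans, and the matching share over all genes was not counted. The remaining 3 lay 441 bp past the end of Fkbp6, 836 bp past the end of Mov10l1 and 885 bp before the start of Prmt5.

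The promoters of the 4 genes with an interval near a start are printed here because they are the places where the retrieved DNA came closest to a transcription start. They are RefSeq sequences of build GRCm38.p6, the assembly of mm10, each written along its gene's own strand. In the Fkbp6 promoter the capitals, bases 1 to 175, mark the part inside the Gm4665 interval. In the others the capitals mark letters that match TAACNG, the core bound by MYB factors, or CCAAT, the NFY motif, on either strand. A-MYB, encoded by Mybl1, is known to drive piRNA pathway genes at the pachytene stage of meiosis.
Fkbp6, chr5:135349995-135350294, minus strand: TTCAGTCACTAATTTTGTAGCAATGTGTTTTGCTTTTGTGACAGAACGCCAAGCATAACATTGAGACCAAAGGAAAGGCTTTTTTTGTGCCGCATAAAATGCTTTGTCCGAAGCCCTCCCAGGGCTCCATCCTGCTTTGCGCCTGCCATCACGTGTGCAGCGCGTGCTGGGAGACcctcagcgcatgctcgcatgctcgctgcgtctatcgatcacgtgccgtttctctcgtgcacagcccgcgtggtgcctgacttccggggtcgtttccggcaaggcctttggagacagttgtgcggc
Piwil1, chr5:128735996-128736295, plus strand: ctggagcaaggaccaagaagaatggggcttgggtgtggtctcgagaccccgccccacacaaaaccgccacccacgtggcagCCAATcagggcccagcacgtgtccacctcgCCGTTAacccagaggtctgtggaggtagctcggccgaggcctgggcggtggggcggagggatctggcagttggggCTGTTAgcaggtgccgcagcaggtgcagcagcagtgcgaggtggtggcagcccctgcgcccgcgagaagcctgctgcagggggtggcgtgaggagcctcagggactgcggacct
Prmt5, chr14:54517421-54517720, minus strand: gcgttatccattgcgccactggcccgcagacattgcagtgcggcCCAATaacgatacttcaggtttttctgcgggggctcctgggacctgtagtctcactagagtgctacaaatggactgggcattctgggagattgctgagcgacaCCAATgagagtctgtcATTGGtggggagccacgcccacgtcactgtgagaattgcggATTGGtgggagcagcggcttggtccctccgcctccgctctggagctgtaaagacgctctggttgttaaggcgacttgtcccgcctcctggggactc
Wdr77, chr3:105959248-105959547, plus strand: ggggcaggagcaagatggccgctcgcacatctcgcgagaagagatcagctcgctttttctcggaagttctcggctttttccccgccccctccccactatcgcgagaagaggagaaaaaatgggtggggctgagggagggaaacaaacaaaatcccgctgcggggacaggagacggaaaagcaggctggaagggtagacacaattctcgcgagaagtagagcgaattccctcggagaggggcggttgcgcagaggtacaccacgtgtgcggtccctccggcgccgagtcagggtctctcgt

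The Fkbp6 window held no match to either motif, the Piwil1 window held 2 MYB matches and 1 NFY match, the Prmt5 window held 4 NFY matches, and the Wdr77 window held none. Over the 25 genes, 7 of 35 promoter windows (20%) held TAACNG, beside 23.3% of 32851 RefSeq windows of the same 300 bases. CCAAT was found in 12 of 35 (34.3%), beside 37.4%. The 2 motifs can share a base, but in 0 of the 35 windows did their matches overlap. A match here is a run of letters, not a measured binding site. The genes with TAACNG were Piwil1, Tdrd5, Tdrd7, Tdrd12, Tdrkh, Mov10l1 and Mael. Tdrkh and Mael among these had no interval of either list.

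Each interval carries 3 values, the enrichment over input in replicates 1, 2 and 3. The mean fold of the 27 Gm4665 intervals ran from 5.80 to 42.3 with a median of 9.22, beside a median of 9.99 over all 38711 intervals of the list. In replicates 1, 2 and 3 the median over the 27 was 10.8, 8.37 and 10.4, and over the whole list 11.4, 8.50 and 10.3. Of the 27, 11 lay above the list median and 2 were in its top 10%. A fold of at least 8 in every replicate was reached by 13 of the 27 intervals (48.1%), beside 47.2% of the whole list. Those belonged to 10 of the 30 genes (33.3%), beside 25.0% of protein-coding genes of any length with such an interval. The 30 genes are longer than most, and no share for genes of matching length was counted at that fold. The difference is not read as an excess. Read pileup at the summit, which the headers assign to no replicate, ran from 20 to 152 reads with a median of 35.0, and library totals are not known here.

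**Figure D2:**
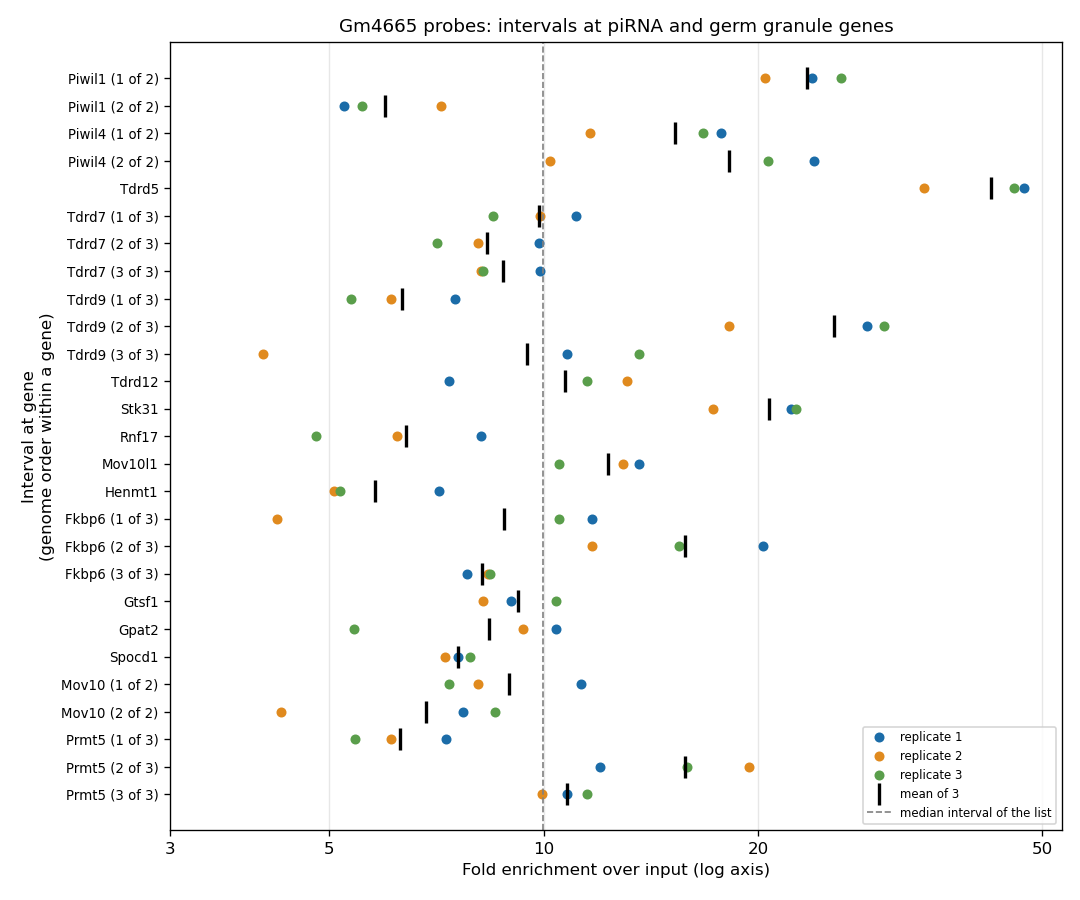
Fold enrichment over input (log axis) for each of the 27 Gm4665 intervals, 1 row per interval, with the 3 replicates as coloured points and their mean as a black bar. The dashed line is the list median of 9.99. Tdrd5 stands at the right with a mean of 42.3, and most other intervals lie near or below the line.

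The steps of the pathway differ in gene length. Median lengths were 38.9 kb for PIWI genes, 70.3 kb for Tudor, 29.6 kb for processing, 28.3 kb for silencing and 13.5 kb for the last group. Counts by step are therefore to be read against the shares by gene length given above, and were not compared between steps. Among the PIWI genes, Piwil1 and Piwil4 had 2 Gm4665 intervals each and Piwil2 had none. Piwil1 encodes MIWI, the PIWI protein of late meiotic and round spermatid stages. Its stronger interval, chr5:128737490-128738716, began 1244 bp downstream of the listed start and did not reach the Piwil1 promoter printed above. The folds there were 23.8, 20.4 and 26.1 (mean 23.4 ± 2.84, SD over the 3 replicates). All 3 replicates were high, above 84.8%, 89.1% and 90% of the list's intervals in replicates 1, 2 and 3. A weaker Piwil1 interval, 12717 bp downstream of the start at chr5:128748963-128749276, had folds of 5.26, 7.19 and 5.56 (mean 6.0 ± 1.04). It is a low interval, above 10.2% of the list by mean fold, and the only Piwil1 value of moderate rank was replicate 2, above 38.9%.

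Piwil4 encodes MIWI2, the nuclear PIWI protein that directs transposon methylation in fetal germ cells. Its interval at chr9:14723182-14724114 had folds of 23.9, 10.2 and 20.6 (mean 18.2 ± 7.13). Replicate 2 was the low sample here, above 61.3% of its own values where replicates 1 and 3 were above 84.9% and 83.1%. The second interval, chr9:14705454-14706298, had folds of 17.7, 11.6 and 16.7 (mean 15.3 ± 3.31), again lowest in replicate 2. It also overlapped the RefSeq gene Gm10706. Piwil2 encodes MILI, which acts from fetal stages through meiosis, and the Gm4665 interval nearest to it lay 11745 bp outside the gene with a mean fold of 12.3 ± 4.72.

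The Tudor genes held the strongest and some of the weakest intervals of the set. Of 10, 6 had a Gm4665 interval, 10 intervals in all with a median mean fold of 9.66. Among protein-coding genes the share with an interval was 34.5% from 10 to 30 kb, 54.5% from 30 to 60 kb and 76.8% from 60 to 150 kb. The Tudor genes fall in these 3 classes. Tdrd5, needed for the chromatoid body and for piRNAs of meiotic cells, had 1 interval near the middle of the gene at chr1:156278916-156280287, 23061 bp from its start. Its folds of 47.1, 34.1 and 45.6 (mean 42.3 ± 7.15) were the highest of the 27 in every replicate. They exceeded 97.7%, 97.1% and 98.2% of the list in the 3 replicates, and the interval was also the widest of the 27 at 1372 bp.

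Tdrd9, which encodes a Tudor-domain RNA helicase needed to silence LINE-1 transposons, had 3 intervals of unequal strength. The middle one, chr12:112040029-112041057, had folds of 28.4, 18.2 and 30.0 (mean 25.5 ± 6.42), the second highest mean of the 27. The interval at chr12:112053408-112054135 had 10.8, 4.05 and 13.6 (mean 9.48 ± 4.91). There the replicates disagreed most among the 27, with replicate 2 above only 2.46% of its list and replicate 3 above 66.1%. The last, chr12:112014679-112014977, had 7.52, 6.12 and 5.37 (mean 6.34 ± 1.09) and was low in all 3.

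Stk31, a Tudor protein with a kinase domain found in germ cells, had 1 interval at chr6:49420142-49421330, 24538 bp from the nearest listed start. Its folds were 22.2, 17.3 and 22.6 (mean 20.7 ± 2.92), above 84.8% of the list by mean. Tdrd7, which takes part in remodelling of the chromatoid body, had 3 intervals spread along its 69.7 kb. In genome order their mean folds were 9.84 ± 1.32, 8.34 ± 1.41 and 8.76 ± 0.979, and their replicate values overlapped, at 8.50 to 11.1, 7.08 to 9.86 and 8.16 to 9.89. All 3 means lay just under the list median. Tdrd12, which acts in the making of secondary piRNAs, had folds of 7.38, 13.1 and 11.5 (mean 10.7 ± 2.97) at chr7:35482069-35482649, with replicate 1 the low sample. Rnf17, which limits the amplification cycle of piRNAs in meiotic cells, had a weak interval of 8.18, 6.24 and 4.80 (mean 6.41 ± 1.70) at chr14:56516382-56516667.

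The 4 Tudor genes without a Gm4665 interval were Tdrd1, Tdrd3, Tdrd6 and Tdrkh. Tdrd1 binds MILI in the intermitochondrial cement, Tdrd6 builds the chromatoid body, Tdrkh anchors trimming at mitochondria, and Tdrd3 is a methylarginine reader that is not limited to germ cells. Tdrd3 is the longest gene of the set at 129 kb, a length at which most protein-coding genes held an interval, and its nearest Gm4665 interval lay 11803 bp away. The nearest lay 4265 bp from Tdrd6, 28760 bp from Tdrkh and 44225 bp from Tdrd1.

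Of 10 genes of piRNA processing and biogenesis, 5 had a Gm4665 interval, 7 intervals in all with a median mean fold of 8.81. Fkbp6, a cochaperone that helps load piRNAs into PIWI proteins, held 3 of them. The interval at chr5:135350120-135350684 covered 175 bases of the promoter printed above and lay upstream of that start, its nearer edge 76 bp away and still within the annotated gene. Its folds were 7.80, 8.37 and 8.41 (mean 8.20 ± 0.341). This was among the most even intervals of the set, yet its level was moderate, above 35.6% of the list. An interval inside the gene, chr5:135327470-135328363, had 20.3, 11.7 and 15.5 (mean 15.8 ± 4.32). The remaining Fkbp6 interval, 441 bp past the 3′ end at chr5:135290856-135291263, had 11.7, 4.23 and 10.5 (mean 8.81 ± 4.02), with replicate 2 above only 3.89% of its own values.

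Mov10l1 encodes the RNA helicase that binds piRNA precursors. Its only interval, chr15:89055988-89056477, lay 836 bp past the 3′ end, 72994 bp from the start. The folds were 13.6, 12.9 and 10.5 (mean 12.3 ± 1.65), above 60.8%, 73.5% and 50.9% of the list in replicates 1, 2 and 3. It was the 1 gene of the 16 that had no interval in the annotated span.

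Gtsf1, a cofactor of PIWI proteins in target cutting, had folds of 9.01, 8.22 and 10.4 (mean 9.22 ± 1.12) at chr15:103412718-103413197, where the interval also overlapped the RefSeq gene Gm52195. Gpat2, a mitochondrial protein that binds MILI, had 10.4, 9.35 and 5.42 (mean 8.39 ± 2.63) at chr2:127432837-127433524, with replicate 3 low. Henmt1 adds the methyl group that protects the 3′ end of piRNAs. It had 7.13, 5.09 and 5.18 (mean 5.80 ± 1.16) at chr3:108964251-108964547, the lowest mean of the 27.

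Pld6, the mitochondrial endonuclease of precursor cutting, Asz1, its scaffold at the mitochondrial surface, Pnldc1, the trimming enzyme, Exd1, a partner of TDRD12, and Btbd18, a transcription factor of piRNA precursor genes, had no Gm4665 interval. Their nearest Gm4665 intervals lay between 10086 bp (Btbd18) and 31147 bp (Pld6) outside the gene. Pld6 and Btbd18 are the 2 shortest genes of the set, at 3.77 and 9.72 kb.

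Of the 3 silencing genes, Mov10 and Spocd1 had an interval and Mael did not. Mov10, a widely expressed helicase related to Mov10l1 that restricts retrotransposons, had 2 intervals below the list median. The one at chr3:104800897-104801406 had folds of 11.3, 8.09 and 7.36 (mean 8.93 ± 2.12) and the one at chr3:104806273-104806645 had 7.70, 4.29 and 8.56 (mean 6.85 ± 2.26). Their ranges of replicate values overlapped. Spocd1, a nuclear partner of MIWI2 in transposon methylation, had 7.59, 7.28 and 7.88 (mean 7.59 ± 0.298) at chr4:129932742-129933244. The nearest interval to Mael, a granule protein needed for transposon repression, lay 23083 bp away.

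In the last group, Prmt5 had 3 Gm4665 intervals over a gene of 10.3 kb, while Wdr77, Ddx4 and Ddx25 had none. Prmt5 encodes the methyltransferase that places the arginine marks read by Tudor proteins. At chr14:54510207-54511038, inside the gene, the folds were 12, 19.4 and 15.9 (mean 15.8 ± 3.68), the only interval above 15 in mean fold at which replicate 1 was lowest. Upstream of the promoter printed above, chr14:54518355-54518702 had 10.8, 9.95 and 11.5 (mean 10.8 ± 0.781). The replicates there were even and close to the list median. Another interval near the 3′ end, chr14:54508671-54508970, had 7.31, 6.12 and 5.44 (mean 6.29 ± 0.949). At 21.0 intervals per 100 kb of gene and flank, Prmt5 had the highest density of the 30, and Piwil1 followed at 8.55. The 30 genes together had 18.6 per Mb. An Mb is a larger unit than 100 kb, so 18.6 and 21.0 are not on the same scale, and Prmt5 was far denser. The Prmt5 figure rests on 3 intervals at a short gene, where few intervals give a high density.

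Wdr77 is the partner subunit of PRMT5, Ddx4 is the vasa helicase of germ granules, and Ddx25 is a helicase of the chromatoid body. Gm4665 intervals nearest to them lay 18740, 49319 and 20222 bp away. For Ddx4, at 54.3 kb, absence of a Gm4665 interval was shared by 45.5% of protein-coding genes of 30 to 60 kb.

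**Figure D3:**
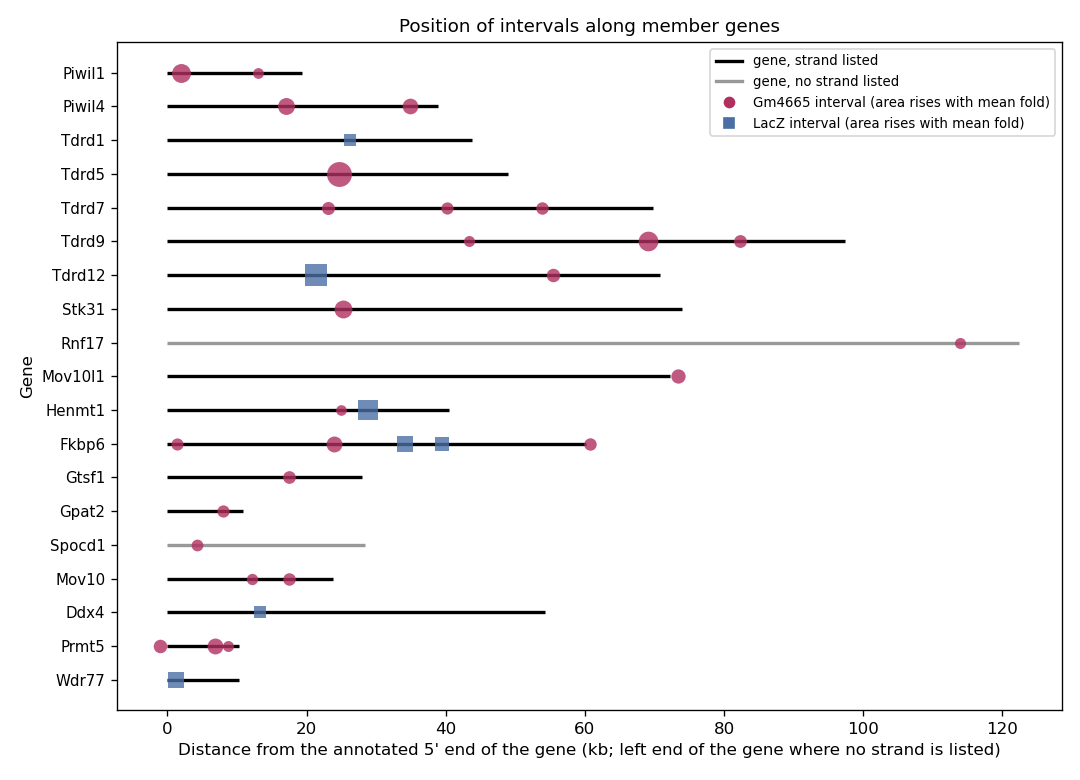
Position of each interval (horizontal axis, kb from the annotated 5′ end, with the gene drawn as a line) for the 19 genes with an interval of either list. Gm4665 intervals are red circles and LacZ intervals blue squares, with area rising with mean fold. Grey genes have no listed strand and run from their left end. Symbols near 0 are seen at Piwil1, Fkbp6, Prmt5 and Wdr77.

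The LacZ probes marked Tdrd1, Tdrd12, Henmt1, Fkbp6, Ddx4 and Wdr77. Tdrd12, Henmt1 and Fkbp6 had intervals of both lists, which is 3 of the 16 genes with a Gm4665 interval and 3 of the 6 with a LacZ interval. No Gm4665 interval at these genes overlapped a LacZ interval. The closest pair, at Henmt1, was 3136 bp apart. The share of the whole Gm4665 list that overlaps a LacZ interval was not counted. The lack of overlap is therefore not read as a trait of these genes. Tdrd1, Ddx4 and Wdr77 had a LacZ interval alone, and 11 genes had neither: Piwil2, Tdrd3, Tdrd6, Tdrkh, Pld6, Asz1, Pnldc1, Exd1, Btbd18, Mael and Ddx25. How often other protein-coding genes of these lengths had intervals of both lists, of LacZ alone or of neither was not counted. The counts of genes with both, LacZ alone and neither are therefore not read as particular to the pathway. Absence from the shorter LacZ list is not a measurement of LacZ signal at a position.

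The strongest LacZ interval of the set lay inside Tdrd12 at chr7:35515704-35517025. Its folds were 51.1, 21.4 and 24.9 (mean 32.5 ± 16.2), above 94.6% of the LacZ list by mean and above 93.8%, 96.1% and 92.5% of it in replicates 1, 2 and 3. Within the same gene, the Gm4665 interval was of middling rank, above 54.4% of its own list. At Henmt1, chr3:108967683-108968856 had 42.3, 10.1 and 22.1 (mean 24.8 ± 16.3), beside the Gm4665 interval that was the lowest of the 27. Without replicate 1 that mean was 16.1.

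Wdr77 had a LacZ interval 754 bp downstream of its start, at chr3:105960252-105961299, with folds of 28.3, 12.3 and 14.3 (mean 18.3 ± 8.70). At Fkbp6, chr5:135317080-135318112 had 21.9, 9.55 and 14.5 (mean 15.3 ± 6.20). The other Fkbp6 interval, chr5:135311888-135312849, had 24.2, 6.05 and 7.93 (mean 12.7 ± 9.97), and its mean was 6.99 without replicate 1. Ddx4 had 13.1, 5.64 and 10.4 (mean 9.69 ± 3.76) and Tdrd1 had 11.6, 6.69 and 4.64 (mean 7.63 ± 3.56). Replicate 1 was highest at 7 of 7 of these intervals, as at 95.9% of the LacZ list, so the LacZ replicates differ in level and their SDs are wide.

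**Figure D4:**
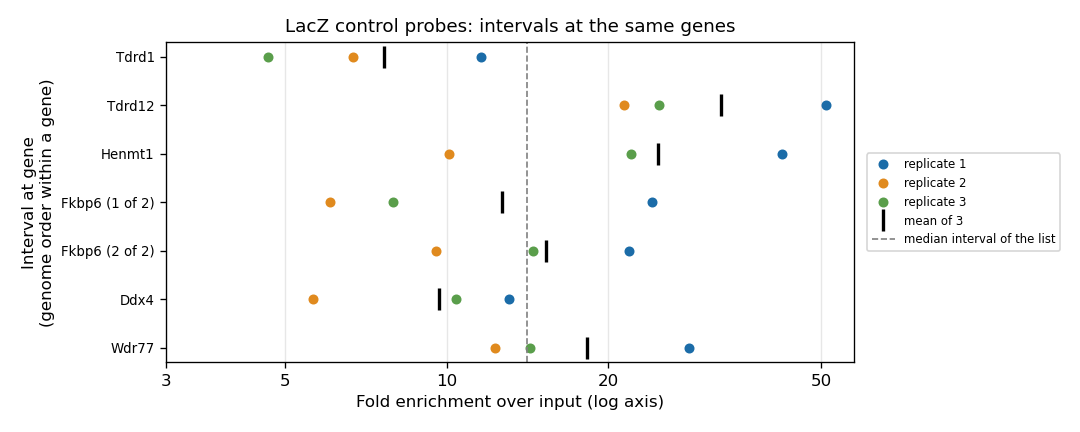
Fold enrichment over input (log axis) for the 7 LacZ intervals at the same genes, with replicates as coloured points and the mean as a black bar. The dashed line is the LacZ list median of 14.1. Replicate 1 is the rightmost point in each row.

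Among Gm4665 intervals, replicate 1 was highest at 15 of the 27, replicate 3 at 9 and replicate 2 at 3. Replicate 2 was lowest at 15, as at 63.0% of the whole list. The median coefficient of variation across replicates (SD as a percent of the mean) was 17.3% at the 27 intervals and 21.9% over the list, and 47.6% at the 7 LacZ intervals beside 54.2% over theirs.

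Widening the flanks shows what the 2 kb limit left out. Between 2 and 5 kb from a gene lay 6 more Gm4665 intervals. The strongest, 3563 bp upstream of the Prmt5 start, had folds of 28.7, 26.9 and 30.0 (mean 28.5 ± 1.58), higher than the 3 intervals inside the limit. At Spocd1, one 3091 bp outside the gene had 28.0, 25.8 and 21.0 (mean 25.0 ± 3.57), beside 7.59 inside it. Piwil1 had one 3508 bp upstream of its start with 16.4, 13.7 and 14.0 (mean 14.7 ± 1.44). The others lay near Fkbp6 (13.4 ± 0.749, overlapping Trim50), Tdrd7 (9.22 ± 0.537, overlapping Tmod1) and Tdrd6 (5.47 ± 1.17, overlapping Pla2g7). Only Tdrd6 among these was a gene with no Gm4665 interval inside the limit. Another 4 LacZ intervals lay in the same 2 to 5 kb zone, with mean folds of 17.9 ± 9.77 near Spocd1, 16.2 ± 9.69 near Tdrd12, 14.3 ± 5.99 near Mov10l1 and 8.20 ± 4.40 near Ddx4. Spocd1 and Mov10l1 had no LacZ interval inside the limit. Intervals in the same zone around other genes were not counted for either list.

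Genes that work beside the pathway were counted in the same way: 35 were listed, among them the transcription factor genes Mybl1 and Tcfl5, DNA methyltransferases, and RNA-binding proteins of granules, and 34 were found. Of these, 15 (44.1%) had a Gm4665 interval and 5 (14.7%) a LacZ interval. Both shares lie near the 39.3% and 16.9% of protein-coding genes of any length. No share or number of intervals for genes of matching length was counted here, so neither share is read as high or low. Snd1, a Tudor nuclease of 455 kb, had 10 Gm4665 intervals, the strongest with 49.4, 40.1 and 36.6 (mean 42.0 ± 6.64). Tex15, which acts in transposon methylation, had 2, the stronger with 41.6, 38.8 and 39.9 (mean 40.1 ± 1.42) and the other with a mean of 24.4 ± 6.18. Setdb1, a histone methyltransferase gene, had 40.1, 36.4 and 40.3 (mean 38.9 ± 2.22) at 1791 bp downstream of its start. Dnmt3a, a DNA methyltransferase gene, had 5. The strongest, 1507 bp outside the gene, had 47.7, 37.1 and 29.7 (mean 38.2 ± 9.05). Mean folds of the others ran from 6.20 to 24.9. Mybl1 had no Gm4665 interval and 1 LacZ interval of 15.0 ± 12.6.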

How the data were processed

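The members and gene lists were chosen with earlier results of these data known. Values come from 2 deposited MACS2 interval lists, named so by their files. Per the file headers, each row holds a linear fold enrichment over input (a ratio) for each of 3 replicates, and a pileup signal at the summit whose replicate is not named. The build is mm10, per the submitters' processing notes; for the aligner, versions, settings and joining of replicates, nothing is given in the sources used here. Each list holds 1 set of intervals for 3 replicates.

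Repeated rows (649 Gm4665, 165 LacZ) were joined with the highest fold kept, and chromosomes 1 to 19, X and Y were used (38711 and 9448 intervals). Genes came from RefSeq GRCm38.p6, without 340 entries starting below 3 Mb outside chromosome Y. An interval counted with 1 bp of overlap. Starts and strand came from the RefSeq promoter table. A percentile ranks a fold within its own list and replicate. Nothing was tested: presence has no replicate spread, and the lists were normalized separately. Library depth is unknown. Every member with an interval is named, as are the 4 related genes of highest mean fold and, after its value was seen, Mybl1. Dnmt3c was matched as Dnmt3b-ps1. Length classes and start windows were set after seeing the data. The overlap code was checked on simulated intervals. Python 3.11.15, pandas 2.3.3 and numpy 2.4.6 were used. Alternatives were the flank, overlap rule, fold limits, list size, repeated rows and leaving out replicates.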

Additional observations from a re-analysis of the deposited data

How the results depend on the processing

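The 16 genes with a Gm4665 interval were 15 with no flank (Mov10l1 left), 17 with 5 kb flanks (Tdrd6 joined), and the same 16 by midpoint, at a minimum fold of 4 in each replicate, and without LacZ overlaps. The last 2 settings could remove no gene. All 27 intervals had a fold of at least 4 in each replicate, and 0 overlapped a LacZ interval. At a minimum fold of 8 in each replicate they were 10 genes and 13 intervals of 27. With the Gm4665 list reduced to the 9448 strongest intervals they were 5 (16.7%), beside 15.4% of protein-coding genes at that list size. Within 2 kb of a listed start, a setting added after seeing the data, 3 genes had a Gm4665 and 1 a LacZ interval. Fewer bases and genes were searched there, and the cause of the lower counts was not tested. In the other settings LacZ counts ran from 4 to 8. The median mean fold of 9.22 was 8.84 to 9.72 without each replicate and 9.08 to 9.48 with other flanks. With 1 replicate left out, no mean of a Gm4665 interval moved by over 1.29 times, and means of LacZ intervals moved by up to 1.82 times. No paired analysis was possible because no result comes from a test. Library depth is not known here, and presence of an interval could not be recomputed with fewer replicates.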

Other observations

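Dazl, which encodes an RNA-binding protein needed for germ cell development and was on the list of related genes, had Gm4665 and LacZ intervals that overlapped each other. None of the 30 genes above had such a pair. The share of the whole Gm4665 list that overlaps a LacZ interval was not counted, so this is not read as a difference between Dazl and the 30 genes. The Gm4665 interval, chr17:50293926-50295246, lay 306 bp upstream of the listed start with folds of 4.76, 3.62 and 6.09 (mean 4.82 ± 1.24, SD over 3 replicates), above 1.43% of its list. The LacZ interval, chr17:50293710-50295209, lay 90 bp upstream, covered 161 bases of the promoter window and had folds of 10.5, 4.55 and 7.52 (mean 7.53 ± 2.99), above 5.22% of its list. Both are among the weakest of their lists although they are 1321 and 1500 bp wide. Dazl was picked out after its values were seen.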
